A study of Homo sapiens with 6 samples.

Results

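Transcripts of 10 genes for lipid droplet coats and enzymes were followed in HL-60 cells given amiodarone. The members, fixed by gene symbol, were PLIN2, PLIN3, DGAT1, DGAT2, SOAT1, PNPLA2, LIPE, MGLL, HILPDA and G0S2. The deposited expression table of 17911 genes had a row for 9 of them. No row was matched for G0S2, which encodes an inhibitor of the lipase ATGL, and it was not analysed here. HL-60 is an established human cell line, labelled a promyelocyte in the series. Bulk RNA was sequenced from 3 libraries of control cells, with no dose or vehicle named, and from 3 libraries of cells exposed to 10 uM amiodarone for 24 h. No other difference between the groups is labelled. Amiodarone is an antiarrhythmic drug whose cationic amphiphilic structure lets it collect in acidic compartments. The series title presents it as a SIRT3 activator with autophagic and mitophagic killing of leukaemia cells, and the comparison asks which transcripts differ after exposure.

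A lipid droplet is a store of neutral lipid, mainly triglyceride and cholesteryl ester, enclosed by a single phospholipid layer and coated with proteins of the perilipin family. Acyltransferases of the endoplasmic reticulum make the stored esters. Lipases release them in sequence, ATGL acting on triglyceride, hormone-sensitive lipase on diglyceride and monoglyceride lipase on the last step. Small proteins such as HILPDA and G0S2 hold ATGL back. In myeloid cells, droplets are also platforms for the making of lipid mediators.

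The values behaved like RPKM, a read count scaled for transcript length and library depth. Levels were therefore set side by side between genes, but their order depends on the transcript lengths used, which are not given. From the spacing of low values, the depth was estimated at 16000000 to 18000000 reads or fragments in each library. The labelled cell type was checked with 7 promyelocyte markers. Their summed value was 6949 to 7071 in controls and 3120 to 3178 after amiodarone, with MPO, the granule peroxidase, at 5962 ± 43.7 and 2613 ± 28.4 (SD, n = 3 per group) as the greater part of it. Of the 7, 5 fell, and the other two did not: MYB, a progenitor transcription factor gene, rose from 112.2 ± 0.873 to 124.1 ± 3.64 (not called after scaling to equal sums), and CD33 was at 91.7 ± 2.12 and 95.6 ± 3.55 and was not called (called higher after scaling by the median of ratios). Of 9 monocyte and macrophage markers, 3 reached a value of 1 in any library, and the summed value was 34.9 to 37.2 and 51.3 to 55.1. CD14, a monocyte surface marker, was at 0.347 ± 0.0907 and 0.793 ± 0.164, while CSF1R of the same list was at 1.09 ± 0.165 and 0.557 ± 0.0551, both under the filter. Also under the filter, CD163 went from 0.05 to 0.787 ± 0.0379 and MSR1 from 0.0133 ± 0.0231 to 0.12 ± 0.0436, without overlap. MRC1, MARCO and FCGR3A, under the filter too, overlapped between the groups. The 2 tested markers of this list were both called higher. ITGAM rose from 2.29 ± 0.0529 to 7.63 ± 0.0902, and CD68 from 31.9 ± 1.33 to 43.2 ± 2.07. CD68 made up most of the sum, and AC016876.2 shares 81.7% of its exonic bases on the same strand. Other markers named here besides MPO and CD14 were chosen after their values were seen. Summed markers of mature neutrophils were at 100.9 to 102.2 and 97.3 to 102.2, and lymphoid markers at 12.8 to 14.3 and 10.9 to 11.8. The neutrophil sum held opposite calls among its 4 tested markers. MMP9 rose from 20.5 ± 0.883 to 37.3 ± 2.44, while CSF3R fell from 74.4 ± 0.616 to 57.6 ± 0.874. CXCR2 fell from 3.99 ± 0.35 to 2.91 ± 0.104, and CAMP was not called. Hepatocyte markers summed to 0.08 to 0.23 and 0.34 to 0.45, and the erythroid marker to at most 0.05 in any library. Of 8 adipocyte markers, some of which HL-60 cells also expressed, 7 had a row and their summed value was 43.3 to 45.1 in controls and 37.1 to 40.3 after amiodarone. Of the 4 adipocyte markers tested, CFD and LPL fell and CIDEC and ADIPOQ rose. ADIPOQ was near the filter, at 0.457 ± 0.0473 in controls and 1.16 ± 0.0794 after amiodarone. It was tested only because the amiodarone libraries reached a value of 1. The promyelocyte, monocyte, lymphoid, hepatocyte and adipocyte sums did not overlap between the groups. Of all 11445 tested genes, 78.3% were called and 79.3% did not overlap between the groups. No marker with a row was at 0 in all libraries, and the part of the markers in the results below was not tested. In bulk RNA, fewer cells of a type and less RNA per cell cannot be told apart.

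PLIN2 rose, HILPDA fell, and the second coat gene PLIN3 did not pass the test. MGLL was moderately higher, DGAT2 and PNPLA2 slightly higher (both calls were lost after scaling to equal sums), SOAT1 lower, and DGAT1 did not pass. Of the 9 measured members, 8 reached a value of 1 in 3 or more libraries and were tested, and each of these 8 was above that value in both groups. LIPE was below it. With an adjusted p below 0.05 as the limit, limma called 6 of the 8, of which 4 were higher and 2 were lower. Over all 11445 tested genes 78.3% were called, 33.5% higher and 44.8% lower, so the share of members called was near the background. Calls in the higher direction made up 42.8% of all calls, 51.1% under median-of-ratios scaling and 34.4% under scaling to equal sums, so which direction had more calls depended on the scaling. The groups did not overlap in 5 of the 8 members, against 79.3% of all tested genes. The median log2 fold change of the 8 was 0.05, or 0.13 under median-of-ratios scaling and -0.04 under scaling to equal sums, so its sign depended on the scaling. That of all tested genes was -0.06, 0.01 and -0.14. Labels do not say that libraries came from separate cultures, so each p-value measures spread among 6 libraries that may differ for technical reasons only.

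**Figure D1:**
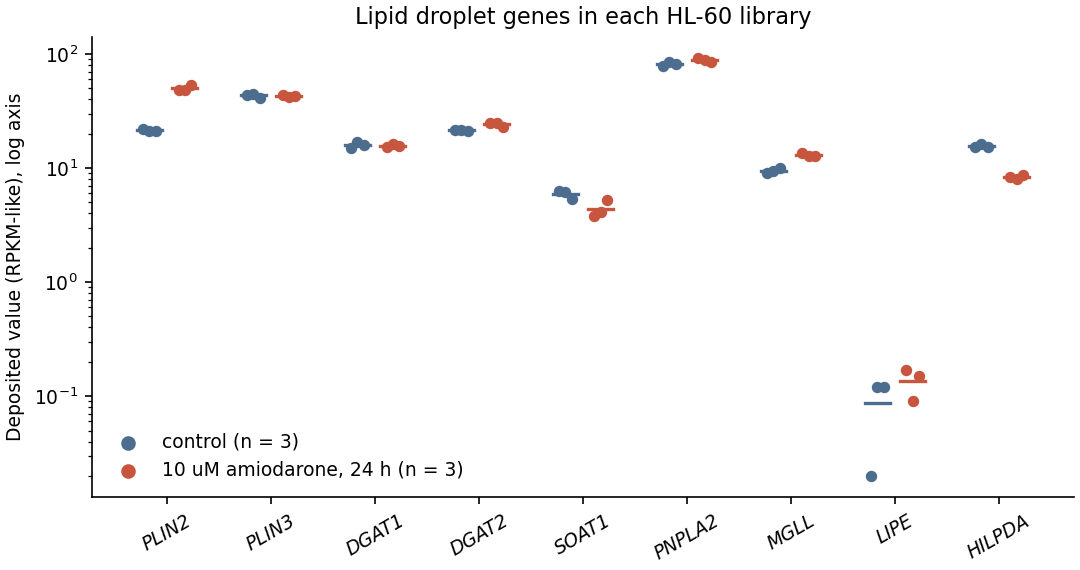
Deposited RPKM-like value (log axis) of the 9 measured lipid droplet genes in each library, with 3 control (blue) and 3 amiodarone libraries (red) as points and the group mean as a bar. PLIN2 moves from 20.9 to 22.1 up to 48.6 to 53.5, HILPDA falls from at least 15.3 to at most 8.68, and LIPE stays at or below 0.17 in all 6 libraries.

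The coat genes parted. PLIN2 encodes perilipin 2, also known as adipophilin, which binds the droplet surface and is degraded when it is not bound to lipid. Its value was 22.08, 20.91 and 21.20 in the control libraries and 48.78, 48.55 and 53.54 after amiodarone. Every amiodarone library was far above every control library. The ratio of means was 2.35 (21.4 ± 0.609 to 50.3 ± 2.82, SD, n = 3 per group), and the log2 fold change on log2(value + 1) was 1.19 (SE 0.042, limma, adjusted p = 1.05e-09). PLIN2 ranked 176th by log2 fold change among the 3832 genes called higher. An estimated 750 and 1600 reads per library lay behind the 2 means, for which counting alone gives a coefficient of variation of 3.65% and 2.49%, beside 2.85% and 5.6% observed.

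PLIN3 encodes perilipin 3 (TIP47), a coat protein that moves between the cytosol and young droplets. Control libraries held 43.60, 44.74 and 41.32, and amiodarone libraries 43.41, 41.60 and 43.04. The groups overlapped, with a log2 fold change of -0.02 and a 95% interval of -0.10 to 0.06 (limma, adjusted p = 0.673). The sign of this value depended on the scaling: with the median of ratios it was 0.06, and it was -0.11 with a call (adjusted p = 0.015) after scaling to equal sums. It was also slightly positive without control replicate 2 (0.0077) or without amiodarone replicate 2 (0.0009), uncalled in both cases. On the opposite strand, AC027319.1 covers 17.8% of the exonic bases of PLIN3, and whether reads were counted by strand is not given in the sources used here.

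A ratio within a library does not change with its scaling. The PLIN2 to PLIN3 ratio was 0.506, 0.467 and 0.513 in controls and 1.12, 1.17 and 1.24 after amiodarone. PLIN2 thus went from the lower to the higher of the 2 coat transcripts, in every library. The log2 ratio differed by 1.25, with an exact two-sided permutation p of 0.1, which is the smallest that 3 against 3 libraries allow. This p was the same for each of the 4 ratios compared, also after Benjamini-Hochberg adjustment over them.

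The stretches upstream of both coat genes are shown because PLIN2 rose and PLIN3 was not called, and the windows can be compared. RefSeq (GRCh38.p14) places the PLIN2 window at chr9:19127493-19127742 on the minus strand. That is the 250 bases before the RefSeq start, inside the GENCODE 29 span of the gene (chr9:19108375-19149290), which includes longer transcripts. The PLIN3 window is at chr19:4867668-4867917, also on the minus strand, and the GENCODE 29 span of that gene (chr19:4838341-4867768) reaches into it. Each is written 5′ to 3′ along the gene, and capitals mark any match to the motifs named below.
PLIN2: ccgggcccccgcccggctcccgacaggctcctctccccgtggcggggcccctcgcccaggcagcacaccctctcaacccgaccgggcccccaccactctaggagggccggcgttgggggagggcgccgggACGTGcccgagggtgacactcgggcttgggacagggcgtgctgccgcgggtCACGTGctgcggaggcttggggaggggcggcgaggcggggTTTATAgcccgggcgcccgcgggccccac
PLIN3: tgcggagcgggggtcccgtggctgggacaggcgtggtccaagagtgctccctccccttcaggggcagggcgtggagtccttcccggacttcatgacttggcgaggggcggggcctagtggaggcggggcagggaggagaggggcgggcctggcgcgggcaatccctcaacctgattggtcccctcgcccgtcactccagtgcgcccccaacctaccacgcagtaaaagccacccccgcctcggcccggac

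Both windows are rich in G and C, 78.0% for PLIN2 and 70.8% for PLIN3. Motifs were searched on both strands of RefSeq's 300-base windows, which run 50 bases past the start. The PLIN2 window held ACGTG, the core of the hypoxia response element, at -120 from the start on the gene's strand. A second pair of matches to it, 1 on each strand at -69 and -68, lay within CACGTG at -69, the E-box bound by the TFEB family, so these overlap. TATAAA, the TATA box letters, matched on the opposite strand at -29. The PLIN3 window held no match to any motif searched, which says only that these letters are not in it. Windows of SOAT1, which was called lower, and of LIPE, which was not tested, held no match either. Of all 35116 RefSeq promoter windows, 21.4% held ACGTG, 7.26% CACGTG and 11.5% TATAAA. TGATGNAA (the ATF4 and C/EBP composite site, 3.62% of windows) and AGGTCANAGGTCA (the PPAR and RXR element, 0.0228%) matched no window of the measured members searched. TCACNCCAC, a sterol regulatory element in 1.13% of windows, matched that of PNPLA2 at -153 on the opposite strand and no other window of these members. The measured members searched were PLIN2, PLIN3, PNPLA2, SOAT1 and LIPE, and no window of DGAT1, DGAT2, HILPDA or MGLL was searched.

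Of the genes that esterify, DGAT2 was slightly higher, SOAT1 was lower and DGAT1 did not pass the test. DGAT1 and DGAT2 encode unrelated enzymes that catalyse the same final step of triglyceride synthesis. DGAT2 was at 21.66, 21.59 and 21.08 in controls and 24.84, 24.71 and 23.05 after amiodarone, without overlap but by a small margin. The ratio of means was 1.13, and the log2 fold change was 0.17 (SE 0.038, limma, adjusted p = 0.00212). After scaling to equal sums it was 0.08 and not called (adjusted p = 0.0765). DGAT1 stood at 15.11, 17.07 and 15.90 in controls and 15.16, 16.33 and 15.73 after amiodarone, so that the groups overlapped. Its log2 fold change was -0.02 with a 95% interval of -0.13 to 0.09 (limma, adjusted p = 0.675), and 0.05 after scaling by the median of ratios. The sign also turned without control replicate 2 (0.02) and without amiodarone replicate 1 (0.0017). The DGAT2 to DGAT1 ratio, free of scaling, was 1.43, 1.26 and 1.33 in controls and 1.64, 1.51 and 1.47 after amiodarone. All 3 amiodarone ratios were above the control ratios, by a log2 difference of 0.20 (exact permutation p = 0.1).

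SOAT1 encodes sterol O-acyltransferase 1 (ACAT1), which makes the cholesteryl esters of droplets in macrophages and many other cells. Its value was 6.28, 6.19 and 5.30 in controls and 3.76, 4.12 and 5.27 after amiodarone. The highest amiodarone value lay just under the lowest control value, so the groups barely separated. The ratio of means was 0.74 (5.92 ± 0.542 to 4.38 ± 0.789, SD, n = 3 per group), with a log2 fold change of -0.37 (SE 0.097, limma, adjusted p = 0.00471). Spread between libraries exceeded counting error: the coefficient of variation was 9.15% among controls and 18.0% among treated libraries, beside 3.71% and 4.51% from counting. SOAT1 was thus the most variable of the 8 tested members in both groups. The log2 fold change was -0.48 without amiodarone replicate 3 and -0.22 with a pseudocount of 5, the extremes of the 14 alternatives, and it was called in each.

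Among the lipases, MGLL was higher, PNPLA2 was called by a small margin, and LIPE was hardly detected. PNPLA2, which encodes ATGL, had the highest value of the members in both groups, at 77.91, 85.22 and 81.26 in controls and 92.75, 88.97 and 84.26 after amiodarone. The groups overlapped, since the lowest amiodarone value was below a control value. The ratio of means was 1.09, with a log2 fold change of 0.12 and a standard error of 0.041 (limma, adjusted p = 0.0187). That call was lost after scaling to equal sums (0.03, adjusted p = 0.476), without control replicate 1 (0.089, adjusted p = 0.0799) and without amiodarone replicate 1 (0.088, adjusted p = 0.0748). It was lost too without a filter on low values (adjusted p = 0.0509) and without the variance trend (adjusted p = 0.0595).

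MGLL encodes monoglyceride lipase, which frees the last fatty acid and also breaks down the endocannabinoid 2-arachidonoylglycerol. It was at 9.01, 9.37 and 9.99 in controls and 13.58, 12.78 and 12.80 after amiodarone, with no overlap. The ratio of means was 1.38 and the log2 fold change 0.43 (SE 0.049, limma, adjusted p = 1.1e-05). Over the alternatives this ranged from 0.32 to 0.50, and the gene was called in each. Set against PNPLA2 in the same library, MGLL was at 0.116, 0.110 and 0.123 in controls and 0.146, 0.144 and 0.152 after amiodarone, a log2 difference of 0.34 (exact permutation p = 0.1).

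LIPE, the gene of hormone-sensitive lipase, was at 0.02, 0.12 and 0.12 in controls and 0.17, 0.09 and 0.15 after amiodarone. These values stand for about 5.9 and 8.5 reads per library, and the groups overlapped. Fitted without a filter, the log2 fold change was 0.07 (SE 0.046, limma, adjusted p = 0.271), so no difference was detectable at this depth.

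**Figure D2:**
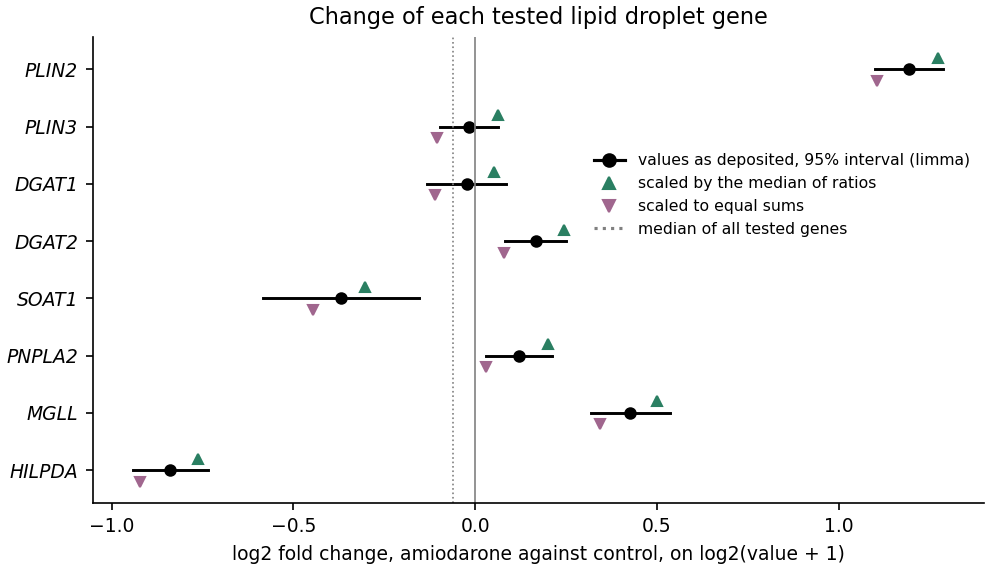
Log2 fold change (amiodarone against control, on log2(value + 1)) of the 8 tested lipid droplet genes, with the value as deposited as a black point and its 95% interval from limma as a line. Triangles give the same value after scaling by the median of ratios (up) or to equal sums (down). PLIN2, MGLL, SOAT1 and HILPDA stay clear of 0 under both scalings, whereas PLIN3 and DGAT1 turn from -0.02 to 0.06 and 0.05 under the first.

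HILPDA, the hypoxia-inducible lipid droplet-associated protein, is a small ATGL inhibitor that is known as a target of hypoxia-inducible factor. It had 15.36, 16.33 and 15.27 in controls and 8.27, 8.0 and 8.68 after amiodarone. Every amiodarone library was below every control library. The ratio of means was 0.531 (15.7 ± 0.588 to 8.32 ± 0.342, SD, n = 3 per group), and the log2 fold change was -0.84 (SE 0.047, limma, adjusted p = 3.21e-08). It ranged from -0.92 to -0.63 over the alternatives and was called in each, and by size it was 556th among the 5127 genes called lower. HILPDA lies at chr7:128455849-128458418 on the plus strand (GENCODE 29), where AC010655.2 shares 9.0% of its exonic bases.

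The HILPDA to PNPLA2 ratio was 0.197, 0.192 and 0.188 in controls and 0.0892, 0.0899 and 0.103 after amiodarone. It was formed after the values were seen, in place of a planned ratio that also held G0S2. Each treated library had less HILPDA per PNPLA2 transcript, on this length-scaled measure, than any control, with a log2 difference of -1.03 (exact permutation p = 0.1). Protein levels and lipase activity were not measured here.

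**Figure D3:**
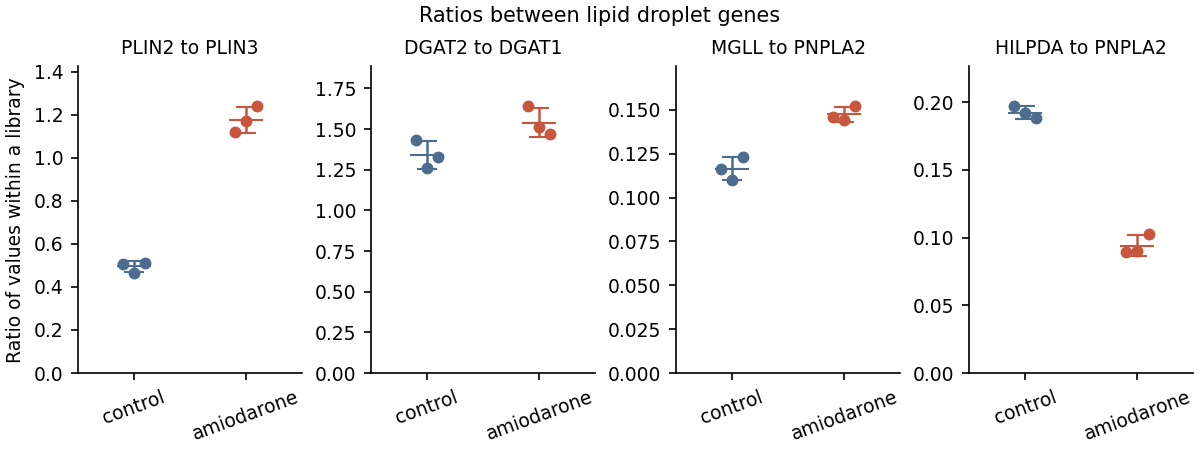
Ratio of 2 deposited values within a library, for 4 pairs of lipid droplet genes, with libraries as points (3 control in blue, 3 amiodarone in red) and mean ± SD as bars on axes that start at 0. The PLIN2 to PLIN3 ratio goes from 0.496 ± 0.0247 to 1.18 ± 0.0609 and the HILPDA to PNPLA2 ratio from 0.192 ± 0.00465 to 0.094 ± 0.00779, with no overlap in any of the 4 panels.

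In order of deposited value, the control libraries had PNPLA2 first, then PLIN3, DGAT2, PLIN2, DGAT1, HILPDA, MGLL, SOAT1 and LIPE. DGAT2 and PLIN2 overlapped there, as did DGAT1 and HILPDA, and the other neighbours did not. After amiodarone PLIN2 stood second, above PLIN3, and MGLL stood above HILPDA. No neighbours overlapped in the amiodarone libraries. SOAT1 kept the lowest value of the tested members in both groups. This order between genes also depends on the transcript lengths used.

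The other members' loci are given by GENCODE 29 (GRCh38). DGAT2 is at chr11:75759512-75801535 and PNPLA2 at chr11:818902-825573, both on the plus strand. SOAT1 is at chr1:179293714-179358680 on the plus strand, MGLL at chr3:127689062-128052190 and LIPE at chr19:42401507-42427426, both on the minus strand. DGAT1 is at chr8:144314584-144326910 on the minus strand. Opposite-strand genes cover 10.4% of the exonic bases of PNPLA2 (AP006621.1), 9.6% of those of LIPE (LIPE-AS1), 5.4% of those of DGAT2 and 3.4% of those of DGAT1 (HSF1). A same-strand gene shares 10.7% of those of DGAT1.

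Around the members, 8 lists of related genes held 127 genes, of which 122 had a row and 87 were tested. Of the 87, 75 were called, 33 higher and 42 lower, beside 33.5% higher and 44.8% lower over all tested genes. Under median-of-ratios scaling 38 were higher and 36 lower (88 tested), and under equal sums 28 were higher and 43 lower. Each list's share of called genes stands beside the 78.3% of all tested genes. The coat and assembly list had 16 tested genes, 8 higher and 4 lower (75.0% called), and its median log2 fold change was 0.10. Under median-of-ratios scaling that median was 0.26, with 10 higher and 4 lower, and under equal sums 0.02, with 7 higher and 4 lower. Among the 8 called higher on deposited values was HSD17B13, named after its values were seen. It was near the filter in controls (1.41, 1.06 and 0.99) and at 2.8, 4.02 and 3.03 after amiodarone. Other perilipins were low: PLIN1 at 0.0767 ± 0.0208 and 0.0867 ± 0.0306, PLIN4 at 0.47 ± 0.03 and 0.457 ± 0.0208, and PLIN5 at 0.667 ± 0.0666 and 1.11 ± 0.139 (SD, n = 3 per group), all under the filter. PLIN2 and PLIN3 were thus the only perilipin genes above a value of 2 in these libraries. CIDEC, which encodes a protein that fuses droplets and was named after its values were seen, rose from 3.24 ± 0.14 to 6.52 ± 0.21 (log2 fold change 0.83, limma, adjusted p = 1.3e-07). Its relative CIDEB fell from 12.5 ± 0.257 to 10.0 ± 0.352, though NOP9 on the opposite strand covers 61.1% of its exonic bases. FITM2, whose product helps lipid leave the endoplasmic reticulum for droplets, rose 1.18-fold, a call lost after scaling to equal sums (adjusted p = 0.0771). BSCL2, the seipin gene, fell from 24.7 ± 1.6 to 20.8 ± 0.548, with 40.6% of its exonic bases shared with the read-through gene HNRNPUL2-BSCL2. LDAH, a droplet-associated hydrolase gene, was at 14.8 ± 0.564 and 14.9 ± 0.0862 and was not called.

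In the triglyceride synthesis list 3 of 10 tested genes rose and 5 fell (80.0% called), and the median was -0.21. That split was near the 33.5% higher and 44.8% lower of all tested genes. Under median-of-ratios scaling 4 were higher and 5 lower (median -0.14), and under equal sums 2 were higher and 5 lower (median -0.29). The glycerol-3-phosphate acyltransferase gene GPAT4 fell from 24.4 ± 1.13 to 18.8 ± 0.104, and AGPAT2, for the next acylation, from 40.2 ± 1.1 to 29.6 ± 1.07. LPIN1, the gene of the phosphatidate phosphatase lipin 1, rose from 10.5 ± 0.0624 to 15.98 ± 0.208 (log2 fold change 0.56, limma, adjusted p = 1.59e-07). GPAM (2.37 ± 0.246 and 2.21 ± 0.192) and GPAT3 (2.18 ± 0.0503 and 2.53 ± 0.325) were not called, although GPAT3 was called higher after scaling by the median of ratios (adjusted p = 0.0301).

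Lipases and their cofactors were split: 5 of 12 rose and 4 fell (75.0% called), and their median was 0.05, against -0.03 with 3 higher and 5 lower after scaling to equal sums. ABHD5, which encodes the ATGL activator CGI-58, was at 3.27 ± 0.362 and 3.30 ± 0.391 and was not called, with a 95% interval of -0.18 to 0.19 on the log2 scale. LIPA, the lysosomal acid lipase gene, was at 37.0 ± 0.673 and 36.7 ± 1.31, also uncalled, though called lower after scaling to equal sums (-0.10, adjusted p = 0.0227). ABHD6, a monoglyceride lipase gene like MGLL, rose from 3.08 ± 0.222 to 4.11 ± 0.208, and DDHD2, a neutral lipid hydrolase gene, fell from 9.41 ± 0.41 to 8.24 ± 0.153, a call lost after scaling by the median of ratios (adjusted p = 0.0797). For sterol esters, SOAT2 was at or below 0.1 in all 6 libraries, so that SOAT1 was the only acyltransferase of this kind above the filter. Both tested genes of the sterol ester list were called (100%), 1 in each direction. NCEH1, a hydrolase of cholesteryl esters, rose from 5.07 ± 0.46 to 6.70 ± 0.244 (log2 fold change 0.34, limma, adjusted p = 4.07e-04), opposite in sign to SOAT1.

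Of the acyl-CoA synthetases, which activate fatty acids for esterification or oxidation, ACSL1, ACSL3 and ACSL4 rose and ACSL5 fell. ACSL1 rose 2.37-fold from 25.3 ± 0.735 to 59.9 ± 1.6, close to the 2.35-fold of PLIN2, and ACSL4 from 20.6 ± 0.463 to 36.6 ± 0.979. The droplet-resident ACSL3 rose from 12.3 ± 0.287 to 15.6 ± 0.49. ACSL5, named after its values were seen, fell from 15.8 ± 0.505 to 12.8 ± 0.665 (limma, adjusted p = 1.74e-04). In the whole list of activation, uptake and binding 4 of 12 rose and 6 fell (83.3% called), and the median was -0.08, against 5 higher, 4 lower and -0.02 under median-of-ratios scaling. The scavenger receptor gene CD36, a fatty acid uptake gene, was at 0.21 ± 0.0265 and 0.387 ± 0.0503, under the filter. FABP5, a fatty acid binding protein gene named after its values were seen, fell from 116.8 ± 4.36 to 56.1 ± 1.75.

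**Figure D4:**
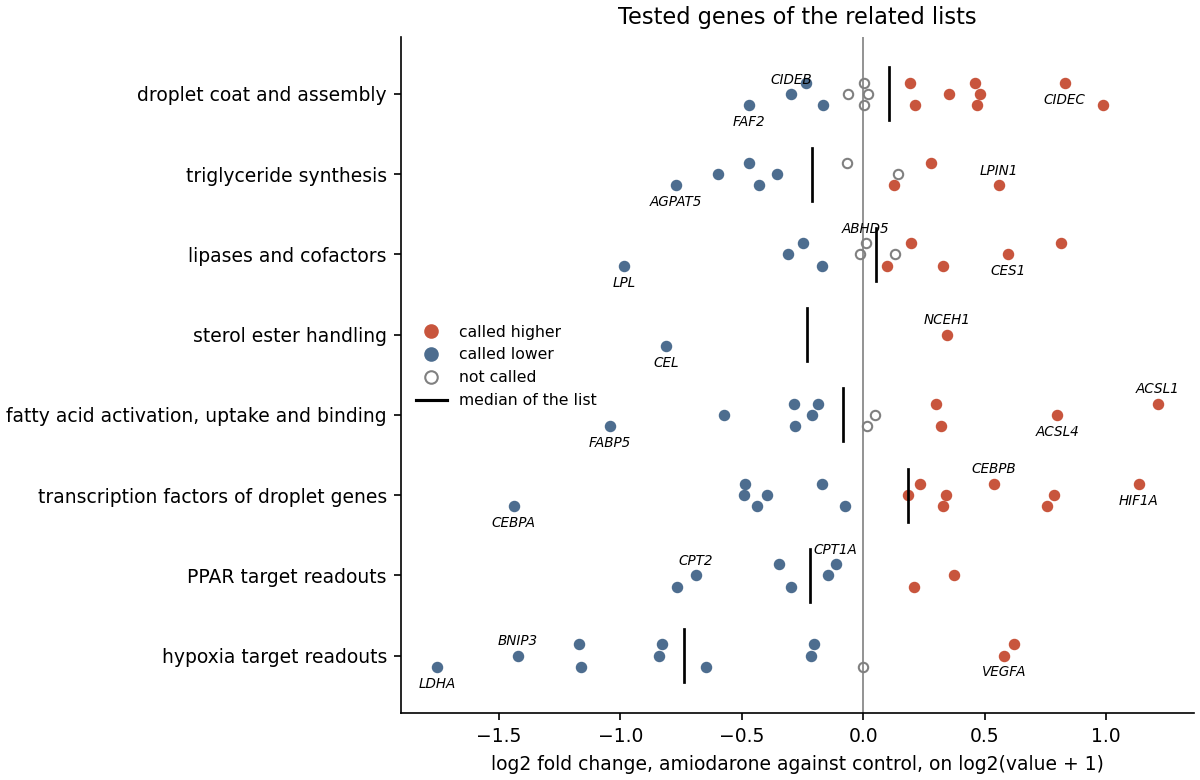
Log2 fold change (amiodarone against control, on log2(value + 1)) of the tested genes of 8 related lists, 1 row per list, with called genes filled (red higher, blue lower), uncalled genes open and the list's median as a black bar. The labelled genes were chosen after their values were seen. The hypoxia row lies mostly left of 0 (median -0.74), while ACSL1 (1.21) and HIF1A (1.13) are the rightmost points of their rows.

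Transcripts of known regulators of PLIN2 and HILPDA were measured too, but not the protein or activity of these factors. PLIN2 is a known target of the PPAR family. PPARD rose from 9.38 ± 0.967 to 12.1 ± 0.498 and PPARA from 3.74 ± 0.235 to 4.38 ± 0.153 (not called after scaling to equal sums, adjusted p = 0.115), and PPARG was at 0.293 ± 0.0808 and 0.933 ± 0.16, under the filter. Of 8 tested PPAR target readouts other than the members, 2 rose and 6 fell (100% called), and the median was -0.22. Under median-of-ratios scaling 2 were higher and 4 lower. CPT1A, the mitochondrial fatty acid entry enzyme, fell from 29.7 ± 0.673 to 27.4 ± 0.864, a call lost after scaling by the median of ratios (-0.04, adjusted p = 0.353). ANGPTL4 was at 0.18 or less in every library and PDK4 at 0.03 or less, and both were listed under the filter.

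HIF1A transcripts rose from 8.12 ± 0.454 to 19.0 ± 0.479 (log2 fold change 1.13, limma, adjusted p = 3.33e-09), whereas HILPDA fell. Of 12 tested hypoxia target readouts 9 fell and 2 rose (91.7% called), and the median was -0.74. Among the 9, ANKRD37, named after its values were seen, was at 1.82 ± 0.457 in controls and 0.787 ± 0.188 after amiodarone. It was tested only because the control libraries reached a value of 1. BNIP3, a mitophagy receptor, fell from 39.3 ± 0.41 to 14.0 ± 0.417 and ADM, the adrenomedullin gene, from 5.55 ± 0.326 to 1.92 ± 0.305. VEGFA, a vascular growth factor gene, rose from 62.6 ± 0.399 to 94.1 ± 0.428. Transcripts of the C/EBP factors, which act in adipocyte and myeloid maturation, went apart: CEBPB rose from 123.9 ± 3.35 to 180.1 ± 6.25, and CEBPA fell from 255.8 ± 4.82 to 93.8 ± 1.81, with 25% of its exonic bases opposite AC008738.3. All 15 tested transcription factor genes of the list passed the test (100% called), 8 higher and 7 lower, with a median of 0.18. Under median-of-ratios scaling 8 were higher and 6 lower, and under equal sums 7 were higher and 7 lower.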

How the data were processed

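RNA-seq of HL-60 cells was used from 3 control and 3 amiodarone libraries, grouped by the labelled treatment. Libraries were stranded mRNA preparations, per the labels' protocols. Tools listed in the submitters' processing notes, with no order, are STAR 2.5.3a, featureCounts and fastp 0.23.4, and the build is GRCh38.p12. The annotation counted and the strand setting: not given in the sources used here. No unit is named per the file headers. The authors' deposited values were treated as RPKM: they are not whole, their sums differ (534486 to 574483), and value times transcript length (longest RefSeq-linked GENCODE 29 transcript) summed to 1166000 to 1189000 in every library. Whole reads could not be recovered. At the best depth 48.6% to 56.2% of low values lay within 0.15 of a whole step (median over the depths tried 23.0% to 26.6%), so depths and read numbers are estimates.

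Values were used as deposited. A gene was tested if it reached 1 in 3 or more libraries, with limma 3.58.1 (R 4.3.3, lmFit, eBayes with trend) on log2(value + 1), with Benjamini-Hochberg adjustment over all 11445 tested genes. This scale understates the change of low genes. Folds are ratios of group means. Ratios within a library were compared with scipy 1.17.1 by exact permutation. The procedure was checked on simulated data. Libraries of 1 group correlated at 0.9975 to 0.9982, and at most 0.751% of tested genes had identical values in 2 libraries, so none was a duplicate. Members and lists were chosen with earlier results of these data known. Genes named are the members and a set fixed by name from the lists, whatever their change, with exceptions marked. Alternatives covered the pseudocount, the filter, scaling, the variance trend, the replicate block and leaving out each library.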

Additional observations from a re-analysis of the deposited data

How the results depend on the processing

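The calls of PLIN2, MGLL, SOAT1 and HILPDA kept their direction and their side of the threshold in all 14 alternatives, and the 4 ratios kept their direction in the 7 run for them. Members called numbered 5 or 6 throughout, genes of the related lists 62 to 87, and all genes 6941 to 10264. PLIN3 reversed to 0.0624 under median-of-ratios scaling and was called at -0.1061 after scaling to equal sums, and leaving out 1 library gave -0.0484 to 0.0077. DGAT1 reversed to 0.053 under that scaling by the median of ratios, while leaving out 1 library gave -0.0626 to 0.0202. DGAT2 lost its call after scaling to equal sums (0.0792). PNPLA2 lost it after scaling to equal sums (0.0305), and at an unchanged 0.1206 without a filter on low values and without the variance trend, while leaving out 1 library gave 0.0878 to 0.1563. Beyond what each scaling does by construction, the cause was not tested. The median of all genes was 0.01 and -0.14 under these scalings.

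The labels number the replicates 1 to 3 in both groups but do not say that a number marks a shared culture. Deviations of same-numbered libraries correlated at -0.155, -0.018 and -0.023 over genes, and those of differently numbered ones at -0.097 to 0.114. No shared deviation by number was seen, but 3 libraries per group cannot exclude pairing. With the replicate block 8770 genes were called, and no member's call changed. The planned ratio with G0S2 could not be formed, and LIPE had no tested value, so neither has alternatives. Transcripts with few reads, LIPE above all, are limited by depth.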
